A study of Mus musculus with 2 samples.

Results

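The 38 genes described here are Myc, Mycn, Max and the antagonists that compete for Max, together with 31 proteins that help to make ribosomes. They were taken as a named list by their known function. This list and the further lists below were chosen with earlier results of these data known, so their shares are a description only. All 38 had a probe, out of 20655 genes that could be named on the array.

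Myc is a transcription factor that binds DNA as a dimer with Max, mostly at the sequence CACGTG, called an E-box. Proteins of the Mxd family, Mxi1 and Mnt also pair with Max and repress the same kind of promoter. Myc is known for driving the supply of ribosomes, in which RNA polymerase I (Pol I) copies the ribosomal RNA genes, small nucleolar ribonucleoproteins (snoRNPs) modify the transcript, and assembly factors cut and fold it into the small and the large subunit.

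RAW264.7 is an established mouse macrophage line, from a tumour that Abelson murine leukemia virus induced in a male BALB/c mouse. One group was a culture given vehicle for 24 h, and the other was a culture given IR-61 for 24 h, a small molecule that the study directed at macrophage mitochondria. The labels give no dose, and a legend of the study gives 10 µM. Each condition had 1 array, hybridized with Cy3-labelled RNA, so there was no error between cultures, no test and no p-value, and array and treatment cannot be told apart.

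Values are processed signals of the scanner software, and differences are IR-61 minus vehicle of log2 signals after the 75th percentile of each array was subtracted. That percentile was 10.30 with vehicle and 10.79 with IR-61, so the IR-61 array was brighter as a whole. A gene had to be brighter by more than that to count as higher. Without this scaling each difference would be 0.49 higher, and every difference given here between −0.49 and 0 would take the other sign. The only error the arrays offer is the spread between spots of a probe printed 10 times. From it, the standard deviation (SD) expected for a difference was 0.09 for signals above a log2 of 10, 0.23 between 6 and 10, and 0.46 under 6 on both arrays. This spot SD covers noise within an array and leaves out any difference between cultures.

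The labelled cell type was checked with macrophage markers. Of 12 markers 11 had a named probe and all 11 were well above background on both arrays, while no probe was named as Cd68. Their summed processed signal was 318228 with vehicle and 514687 with IR-61, and the brightest with vehicle was Cebpb, at 112702 and 129298. After scaling the log2 ratio of these sums was 0.21. The median difference of the 11 markers was −0.04, with 6 below 0 and 5 above. Individual markers differed in both directions, with Adgre1 at 52489 and 149992 (difference 1.03), and Cd14 at 7227 and 5151 (difference −0.98). Of the 5 fibroblast markers all 5 were above background, with a summed signal of 59717 and 104718 (log2 ratio after scaling 0.32). Col1a1, the brightest of them on both arrays, read 27148 with vehicle and 58670 with IR-61 (difference 0.62). Neither array had a signal well above background for Epcam and Cdh1, which define epithelial cells, or for Ebf1 of B cells. The 4 T cell markers summed to 1083 and 1522, the 4 B cell markers to 591 and 504, the 4 epithelial markers to 262 and 268, and the 3 neutrophil markers with a named probe to 4928 and 9128. In the order of these lists the brightest with vehicle were Cd3e (684 and 957), Ms4a1 (353 and 180), Krt18 (218 and 214) and S100a8 (4879 and 9020). What part such differences in cell state or makeup have in the values below was not tested, and fewer cells of a kind and less RNA per cell cannot be told apart.

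Most of the 38 genes differed little between the cultures. Of 37 genes measured on both arrays, none was lower and none higher by 2-fold or more, against 1.39% and 1.99% of all 16885 measured genes. At 1.5-fold, 5 were lower, against 5.69% of all genes, and 1 was higher, against 9.79%. The 5 lower genes were Myc, Rrp1b, Ncl, Nop14 and Polr1b, and the higher gene was Max. Polr1b did not reach 1.5-fold with normexp background correction (−0.57), nor Ncl with the mean over its probes (0.12). With scaling to the median 8 members were lower and 1 higher by 1.5-fold, beside 1278 lower and 1183 higher of all 16885 genes. Without scaling no member was lower and 17 were higher, beside 193 lower and 8519 higher of all 16885 genes. Myc was then at −0.39, and no gene of the other pathway lists below was lower by 1.5-fold either. The remaining member, Mxd3, was well above background with IR-61 only. The median difference of the 37 genes was 0.07, beside 0.10 for all genes, and the SD across genes was 0.42, beside 0.44. The centre and spread of the members were thus close to those of the array as a whole. Of all 16885 genes 6554 were below 0 and 10331 above it, while 18 members were below 0 and 19 above. Counts of genes above or below 0 in the lists that follow stand beside that uneven share. The median of the members was −0.01 with scaling to the array median and −0.02 with the mean over the probes of a gene, so its sign changed with the setting. Among all genes past 1.5-fold 63.3% were higher, but this share was 48.1% with scaling to the median, 52.1% with loess, 53.0% with quantile normalization and 97.8% without scaling. Past 2-fold the share was 58.8%, against 45.8%, 47.8%, 47.9% and 96.8% in the same order.

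**Figure D1:**
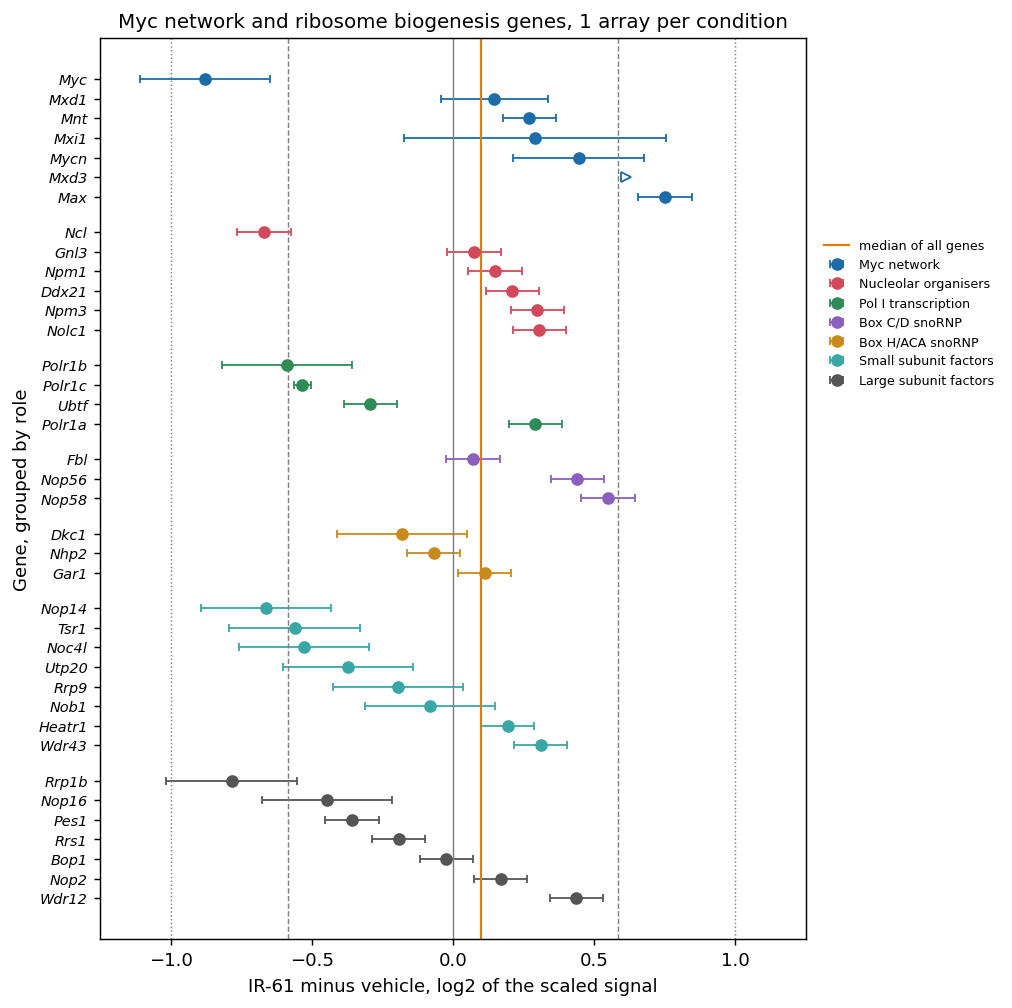
Each point is the log2 difference, IR-61 minus vehicle, of 1 gene, grouped by role, and the bars are ±1 spot SD within an array. The open triangle is the bound of Mxd3, which is set on its own dim vehicle signal and drawn without a bar. The solid grey line marks 0, the orange line the median of all genes (0.10), the dashed lines 1.5-fold and the dotted lines 2-fold. Myc (−0.88) and Max (0.75) lie at opposite ends, and no gene reaches 2-fold.

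Within the Myc network, Myc and its obligate partner Max differed in opposite directions. The Myc probe read 814 with vehicle and 621 with IR-61, or −0.63 and −1.51 after scaling. This difference of −0.88 was 1.84-fold lower and 3.80 times its spot SD of 0.23. It was the lowest of the 37 members. Max read 7720 with vehicle and 18240 with IR-61, which after scaling was 2.61 and 3.36. Its difference of 0.75 was 1.68-fold higher and 7.95 times its spot SD of 0.09, and it was the highest of the members.

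The other members of the network were above 0, except that Mxi1 was below it with normexp background correction. Mycn, the paralog of Myc best known from neural tissue, had a dim probe that read 101 with vehicle and 193 with IR-61, a difference of 0.45 with a spot SD of 0.23. Over the other settings with scaling the lowest difference of Mycn was 0.21, below that SD. Mxd1, an antagonist that accumulates as myeloid cells stop dividing, had 2 probes. The brighter read 744 with vehicle and 1156 with IR-61, a difference of 0.15, and the dimmer read 326 and 517, a difference of 0.18. Both differences of Mxd1 were below their spot SDs of 0.19 and 0.23. Mnt, the antagonist present in most cells, read 7208 and 12202, a difference of 0.27 with a spot SD of 0.09. Mxi1 was near background at 17.9 and 30.7, and its difference of 0.29 was within its spot SD of 0.46. Mxd3, an antagonist found in cells in S phase, was not well above background with vehicle (14.8) and was well above it with IR-61 (31.9). Its bound of 1.53-fold higher with IR-61 is the ratio of its own signals after scaling, and no sure minimum. It is a difference of 0.61 with a spot SD of 0.46. The median of the 6 measured network genes was 0.28.

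Other genes of the same network, listed by function, gave no common direction. Of 10 such genes, all measured, 1 was lower and 1 was higher by 1.5-fold (10% each, beside 5.69% and 9.79% of all genes). Their median was 0.22. Mlx, the partner of the glucose-sensing Mondo proteins, was the lowest, at 1646 with vehicle and 1474 with IR-61 (difference −0.65). Mycl, a further Myc paralog, was the highest, at 111 and 262 (difference 0.76). With normexp Mycl was at 0.42, short of 1.5-fold, and the median of the list was 0.05.

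Textbook targets of Myc outside the ribosome pathway were also read. Of 30 targets, all measured, 3 were lower by 1.5-fold and none was higher, and the median was −0.04. Odc1, the rate-limiting enzyme of polyamine synthesis, was the lowest, with 24735 with vehicle and 19240 with IR-61 (difference −0.85, or −1.14 as the mean of its 3 probes, past 2-fold). Slc3a2, the heavy chain of amino acid transporters (9237 and 8387, difference −0.63), and Bcat1, which transaminates branched-chain amino acids (99.7 and 86.8, difference −0.69), were the others past 1.5-fold. E2f1, a cell cycle transcription factor, was the highest, at 777 and 1504 (difference 0.46). The 3 lower targets are 10% of the list, beside 5.69% of all genes, while 9.79% of all genes were higher. Genes named here and below beyond the lowest and the highest of a list were chosen after their values were seen.

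Among the nucleolar organisers, 5 of 6 were above 0 and 1 was below, while with scaling to the median Gnl3 was also below 0 and 4 of 6 were above it. Ncl, encoding nucleolin, an abundant protein that binds nascent ribosomal RNA, was the exception on its brighter probe, which read 6395 with vehicle and 5640 with IR-61. After scaling these were 2.34 and 1.67, a difference of −0.67 (1.59-fold lower), 7.07 times its spot SD. The second, dimmer Ncl probe went the other way, with 198 and 522, a difference of 0.91 with a spot SD of 0.23. The direction of Ncl therefore depended on the probe, and the mean over both was 0.12. Npm1, the nucleolar histone chaperone nucleophosmin, had 5 probes with differences of 0.15, −0.10, 0.16, −0.08 and 0.29 from the brightest to the dimmest. Its brightest probe read 60175 with vehicle and 93591 with IR-61. With a spot SD of 0.09, the probes of Npm1 did not share a sign. Nolc1, which escorts snoRNPs to the nucleolus, also had probes of opposite sign. The brighter read 3906 and 6772 (difference 0.31) and the dimmer 151 and 137 (difference −0.62), and their mean was −0.16. Npm3, a relative of Npm1, read 1281 and 2211 (difference 0.30). Ddx21, an RNA helicase of the nucleolus, had 2 probes at 0.21 and 0.14. Gnl3, the GTPase nucleostemin, was at 0.07, below its spot SD of 0.09 and below the median of all genes (0.10). The median of the 6 genes was 0.18, but 0.10 both with scaling to the median and with the mean over the probes of a gene.

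Of the Pol I genes, 3 of 4 were below 0, with a median of −0.41, but without scaling 2 of 4 were below 0 and the median was 0.07. Polr1c, a subunit that Pol I shares with RNA polymerase III, was the best measured member, because its probe was printed 10 times on each array. The scaled log2 signals of its 10 spots ran from 1.37 over a median of 1.51 to 1.61 with vehicle, and from 0.89 over 0.98 to 1.05 with IR-61. The scaled spots of both arrays did not overlap, which covers noise within an array only. How many of the 399 probes printed 10 times separate in this way was not counted, so it is not known whether this is unusual. The means were 1.51 ± 0.07 and 0.97 ± 0.05 (SD, n = 10 spots of 1 array), a difference of −0.53 or 1.45-fold lower. Most of this gap came from scaling, since the mean signals were 3588 and 3474, and without scaling the difference was −0.05. Polr1b, one of the pair of subunits that form the active site, read 259 with vehicle and 242 with IR-61, a difference of −0.59 with a spot SD of 0.23. Polr1a, the other subunit of that pair, lay on the other side of 0, at 2059 and 3537 (difference 0.29, spot SD 0.09). Ubtf, which coats active ribosomal RNA genes, was lower on both of its probes, at 42905 and 49132 (difference −0.29) and at 583 and 685 (difference −0.26). Its processed signals were thus brighter on the IR-61 array, by less than the array as a whole.

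Of 17 genes for other Pol I subunits and initiation factors none was lower and none was higher by 1.5-fold, and their median was 0.00. Polr1e was the lowest, at 379 and 398 (difference −0.42), and Polr2h, a subunit common to the nuclear polymerases, was the highest, at 2819 and 5299 (difference 0.42). Of 7 subunits found in Pol II alone, 5 had a named probe, and none of the 5 was past 1.5-fold. Their median was 0.03, from Polr2b at 2909 and 3443 (difference −0.25) to Polr2i at 9075 and 14773 (difference 0.21). Of 11 subunits of Pol III alone, 2 were lower and 2 were higher by 1.5-fold (18.2% each, beside 5.69% and 9.79% of all genes), with a median of −0.20 that became 0.28 without scaling. Polr3c was the lowest, at 1191 and 878 (difference −0.93), and Polr3d was at 483 and 434 (difference −0.64). Polr3e was the highest, at 2383 and 5942 (difference 0.83, or 0.58 as the mean of its probes, which is just short of 1.5-fold), and Polr3gl was at 7353 and 18018 (difference 0.80). The Pol III list was thus the most spread of these 3 lists, with an SD across genes of 0.57. It was 0.27 for the other Pol I factors and 0.18 for Pol II. The lists are unlike, since the Pol I list holds initiation factors and shared subunits and leaves out the 4 members, whose SD was 0.40. Several Pol III genes were also dim, such as Polr3d with a spot SD of 0.23, beside 0.09 for Polr2b.

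The 3 members from the core of the box C/D snoRNPs, which methylate ribosomal RNA, were all above 0, with a median of 0.44, although Fbl was just below 0 with scaling to the median. Nop58 read 3299 with vehicle and 6776 with IR-61, or 1.39 and 1.94 after scaling. This difference of 0.55 was 1.46-fold higher, 5.81 times its spot SD. Nop56, its partner on the same particle, read 9609 and 18297 on the brighter probe, a difference of 0.44 (1.36-fold higher). The dimmer Nop56 probe read 1428 and 1157 and gave −0.79, so the probes disagreed, and their mean was −0.18. With that mean the median of the 3 proteins was 0.07. Fbl, encoding the methyltransferase fibrillarin, was at 3783 and 5577, a difference of 0.07. This was below its spot SD and below the median of all genes (0.10). Snu13, a core protein of this particle that is not among the members, was at 11030 and 19037 (difference 0.30).

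In the box H/ACA snoRNPs, which convert uridine to pseudouridine, all 3 members lay close to 0, with 2 below it that were above it without scaling, and 1 of them, Nhp2, with normexp too. Dkc1, the pseudouridine synthase dyskerin, read 772 and 955 (difference −0.18, spot SD 0.23). Nhp2 read 30191 and 40392 (difference −0.07) and Gar1 9635 and 14611 (difference 0.11). Nop10, the fourth core protein, was also close, at 4034 and 5175 (difference −0.13), and was the lowest of the 12 other snoRNP and assembly genes. Shq1, the chaperone of newly made dyskerin, was the highest of those 12, at 1132 with vehicle and 2601 with IR-61. Its difference was 0.71 on this probe and 0.09 as the mean of its 2 probes. No other gene of the 12 was past 1.5-fold, so that 8.33% of the list were higher, beside 9.79% of all genes. Their median was 0.12.

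Of the 8 small subunit factors, 6 were below 0 and 2 above, with a median of −0.28, but without scaling 3 were below 0 and the median was 0.21. Nop14, a scaffold of the small subunit processome, read 758 with vehicle and 672 with IR-61, or −0.74 and −1.40 after scaling. The difference of −0.66 (1.58-fold lower) was 2.86 times its spot SD. Noc4l, which binds Nop14 in that particle, was at 258 and 251, a difference of −0.53 (1.44-fold lower). Emg1, a methyltransferase bound by the same pair and not among the 8 members, was at 2468 and 2172 (difference −0.67, spot SD 0.09). Tsr1, a GTPase-like protein of late small subunit precursors, had a pair of probes with like values, which read 960 and 912 (difference −0.56) and 901 and 868 (difference −0.54). Utp20, a long scaffold protein, was at 356 and 386 (difference −0.37). Rrp9, which binds the U3 snoRNA (265.1 and 325, difference −0.19), and Nob1, the nuclease that makes the end of 18S ribosomal RNA (243 and 323, difference −0.08), were within their spot SD of 0.23. Heatr1 (6856 and 11001, difference 0.19) and Wdr43 (1876 and 3264, difference 0.31), both needed for transcription of the ribosomal RNA genes as well, were above 0. The second probe of Wdr43 gave 0.05.

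Of 42 further genes of the small subunit processome, all measured, 24 were below 0. By 1.5-fold 7 were lower and 2 were higher, with a median of −0.05. Utp14a, which activates a helicase late in processing, was the lowest, at 281 with vehicle and 202 with IR-61 (difference −0.96). Mphosph10, a U3 protein, was the highest, at 2338 and 5572 (difference 0.76, or 0.12 as the mean of its 2 probes), and Krr1 was the other higher gene (7653 and 16474, difference 0.62). The lower genes were 16.7% of this list, beside 5.69% of all genes, and the higher genes 4.76%, beside 9.79%. Without scaling Utp14a was at −0.47, so that none of the 42 was lower by 1.5-fold, and the median was 0.44.

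Of the 7 large subunit factors, 5 were below 0 and 2 above, with a median of −0.19, but without scaling 1 was below 0 and the median was 0.30. Rrp1b, a nucleolar protein of the large subunit pathway, had a dim probe at 208 with vehicle and 170 with IR-61, or −2.60 and −3.38 after scaling. The difference of −0.79 (1.72-fold lower) was 3.40 times its spot SD of 0.23. Nop16, a factor of early large subunit particles, read 876 and 902, a difference of −0.45 that was 0.04 without scaling. The PeBoW complex, which Pes1, Bop1 and Wdr12 form together, had genes on both sides of 0. Without scaling all of them were above it (Pes1 0.13, Bop1 0.47 and Wdr12 0.93). Wdr12 read 1098 and 2087 (difference 0.44, 1.35-fold higher), Bop1 2130 and 2941 (difference −0.02) and Pes1 12284 and 13442 (difference −0.36), each with a spot SD of 0.09. A second, dimmer Pes1 probe gave 0.11. Nop2, a cytosine methyltransferase of 28S ribosomal RNA, was at 3963 and 6253 (difference 0.17), and Rrs1, which helps to load the 5S particle, was at 3818 and 4688 (difference −0.19).

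Of 43 further large subunit factors, all measured, 4 were lower (9.3%, beside 5.69% of all genes) and none was higher by 1.5-fold (beside 9.79%), with a median of 0.08. Nop53, which brings the RNA exosome to the particle, was the lowest, at 963 and 738 (difference −0.87). Wdr74, a partner of the ATPase Nvl, was close to it, at 1294 and 996 (difference −0.87) over 10 spots with vehicle and 6 with IR-61. Ftsj3 (957 and 782, difference −0.78) and Eif6 (3348 and 3048, difference −0.62) were the others. Brix1 was the highest, at 7760 and 15689 (difference 0.53, or 0.27 as the mean of its 2 probes). Of 16 exosome and decay genes, none was lower and 2 were higher by 1.5-fold (12.5%), with a median of 0.05. Xrn2, a nuclear exonuclease, was the highest (5479 and 12712, difference 0.73), followed by the exosome subunit Exosc1 (2661 and 5850, difference 0.65), and the catalytic subunit Exosc10 was the lowest (832 and 962, difference −0.28). Pooled, the 130 genes of these 5 lists of ribosome biogenesis outside the members had 11 lower (8.46%) and 5 higher (3.85%) by 1.5-fold and a median of 0.02. The members had 5 of 37 lower (13.5%) and 1 of 37 higher (2.70%), and all genes 5.69% and 9.79%.

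The direction of a member went with the signal of its brightest probe, a pattern seen only after the values were known. Second probes with a mean log2 signal under 10 lay on both sides of 0. Those of Ncl (0.91), Mxd1 (0.18), Pes1 (0.11) and Wdr43 (0.05) were above it. Those of Nolc1 (−0.62), Tsr1 (−0.54) and Ubtf (−0.26) were below it. Of 14 members with a mean log2 signal under 10, 11 were below 0 (6 without scaling) and the median was −0.41. Of 23 members at 10 or more, 7 were below 0 (2 without scaling) and the median was 0.17. Of all measured genes 38.7% were below 0 under that limit and 39.0% at or above it. Without scaling these were 845 of 9380 genes and 497 of 7505. Within the dimmer range all genes were not alike, with a median of 0.16 under a log2 of 6, 0.11 from 6 to 8 and 0.02 from 8 to 10, where 9 of the 14 dimmer members lie. In that last range 8.83% of all genes were lower by 1.5-fold, beside 5.69% on the whole array. The 130 other ribosome biogenesis genes had 21 of 33 below 0 under the limit and 38 of 97 at or above it, and the Myc targets 7 of 9 and 11 of 21. Without scaling these counts were 8 and 7 for the 130 genes, and 4 and 2 for the Myc targets. Under a log2 of 10 lie Myc, Nop14, Noc4l, Tsr1, Polr1b, Rrp1b and Nop16, while Ncl and Polr1c were lower at brighter signals. What part the signal level has in these values was not tested.

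**Figure D2:**
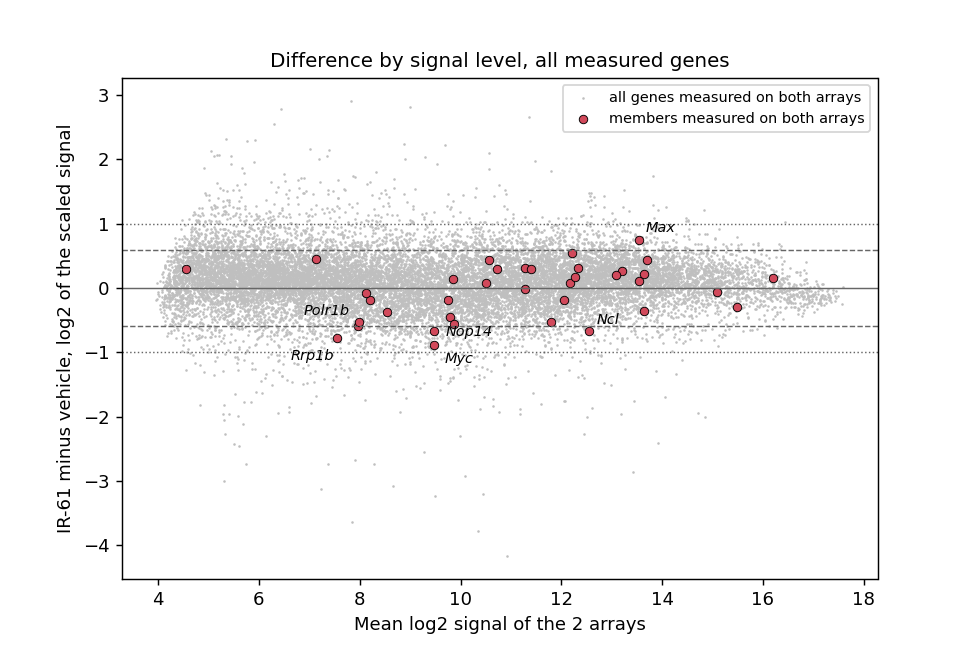
Each grey point is 1 of 16885 genes, placed by its mean log2 signal over both arrays and by its log2 difference, IR-61 minus vehicle, and red points are the 37 members measured on both arrays. The dashed lines mark 1.5-fold and the dotted lines 2-fold, and the 6 members past 1.5-fold are named. Of 14 members with a mean signal under 10, 11 lie below 0 (6 without scaling), and of 23 brighter ones 7 do (2 without scaling).

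The E-box CACGTG, which reads the same on both strands, was looked for in promoters from RefSeq, 300 bases long from 250 before to 50 after each start, on the mouse build GRCm38.p6. Of the 38 members 33 had an entry, and Myc, Npm1, Fbl, Bop1 and Rrs1 had none. The E-box was in the promoters of 7 of these 33 genes (21.2%), beside 1559 of 17492 protein-coding genes (8.91%) and 2187 of 27025 genes in all (8.09%). The stretches of 30 bases around it are shown because Myc and Max, which bind this sequence, differed in opposite directions. Capitals mark the E-box, and each stretch is written along the strand of its gene.
Max: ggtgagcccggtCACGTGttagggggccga
Mnt: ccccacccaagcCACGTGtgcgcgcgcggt
Nop2: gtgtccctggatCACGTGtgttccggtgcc
Pes1: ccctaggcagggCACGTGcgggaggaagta
Tsr1: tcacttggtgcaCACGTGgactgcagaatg
Utp20: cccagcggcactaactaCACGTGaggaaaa
Wdr43: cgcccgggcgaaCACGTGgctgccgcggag

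The stretch of Max lies at chr12:76962234-76962263 on the minus strand, and its E-box begins 3 bases before the start of the gene. That of Mnt lies at chr11:74830789-74830818 on the plus strand, with the E-box 123 bases before the start, and that of Nop2 at chr6:125131811-125131840 on the plus strand, 60 bases before it. In the other 4 genes the E-box lies within the first transcribed bases. It begins at base 3 of Pes1 (chr11:3963965-3963994, plus strand), base 25 of Tsr1 (chr11:74898092-74898121, plus strand), base 38 of Utp20 (chr10:88826765-88826794, minus strand) and base 18 of Wdr43 (chr17:71616220-71616249, plus strand). The 7 genes did not share a direction: Max (0.75), Wdr43 (0.31), Mnt (0.27) and Nop2 (0.17) were above 0, and Tsr1 (−0.56), Utp20 (−0.37) and Pes1 (−0.36) were below it. Without scaling only Tsr1 (−0.07) was below 0, while Utp20 (0.12) and Pes1 (0.13) were above it. A match of these letters is a description of the sequence and does not show binding.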

How the data were processed

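The gene microarray of RAW264.7 cells had 1 vehicle and 1 IR-61 array, on the same slide and in the same scan. The authors deposited the intensity of each of 44397 spots, background-subtracted and detrended by Agilent Feature Extraction (version 11.0.1.1 in the file headers and 11.0.0.1 in the submitters' processing notes). A second table that the authors deposited holds 1 log2 value for each probe. Its columns have the same median of 7.15 and the same quartiles, and they correlate with the log2 intensities of their arrays across probes at r = 0.9995 (vehicle) and 0.9988 (IR-61), so the scale and direction are known and the method of scaling is not. Its differences lay close to those with quantile normalization, at −0.836 and −0.837 for Myc and 0.669 and 0.671 for Max.

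Control spots and outlier spots (124 and 139) were left out, spots of a probe were averaged as log2, and each array was scaled by subtracting its 75th percentile. No spot was saturated. Of 39419 probes used, 77.6% and 81.2% were well above background. Through RefSeq accessions without version, 27224 were named from a gene table of GRCm38.p6. Polr1f, Polr1g and Polr1h were matched by their earlier symbols. A gene took its brightest probe, and 5473 genes had several. Both arrays measured 16885 of 20655 genes. A bound alone was left for 740 genes higher and 145 lower with IR-61. No fold was given for 41 others, nor for 2844 with no array well above background. A bound sets the bright array against the higher of the dim probe's own signal and the lowest signal well above background on the dim array.

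The members and all lists were chosen with earlier results of these data known. The rule for named genes took Myc, Max, Mxd1, the 12 other members with the largest differences, and the lowest and highest gene of each other pathway list. Values are also given for the remaining members, since each is accounted for, and for cell type markers. Genes past 1.5-fold in lists with few of them, and a few partners of members, were chosen after their values were seen. One further list of cell type markers is not reported here. The number of arrays limits the precision. Steps were tested on simulated arrays. Alternatives were 5 other scalings, the deposited values, the mean over the probes of a gene, outlier spots kept, and 2 other filters on dim probes. Normexp with an offset of 50, planned on the mean signal, was run on the median signal, a change chosen after seeing the data, and 4 spots of the IR-61 array whose local background exceeded their signal took the median background. The software was limma 3.58.1 under R 4.3.3 for normexp, and Python 3.11.15 for all else (pandas 2.3.3, numpy 2.4.6, matplotlib 3.10.9, statsmodels 0.14.6).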

Additional observations from a re-analysis of the deposited data

How the results depend on the processing

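No paired analysis was possible because vehicle and IR-61 share a single replicate number, with 1 array in each. Under scaling to the 75th percentile of detected probes, quantile normalization, loess, the deposited values and outlier spots kept, every count of members and of all genes past a fold limit stayed within 1.5 times, and every list median within its spot SD. The members lower by 1.5-fold numbered 8 with scaling to the median, where Tsr1, Noc4l and Polr1c were added, and 1278 of all genes were then lower.

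Without scaling every difference rose by the same 0.49, as its construction gives. Then 2 members were higher by 2-fold (Max and Nop58), none was lower by 1.5-fold (0) and 17 were higher by 1.5-fold. Of all genes 72 were lower and 2156 higher by 2-fold, and 193 lower and 8519 higher by 1.5-fold. The medians were 0.59 for all genes, 0.56 for the members, 0.77 for the Myc network, 0.67 for the nucleolar organisers and 0.93 for box C/D. The medians that changed sign were those of Pol I (0.075), the small subunit (0.21), the large subunit (0.30), box H/ACA (0.42), the Pol III subunits (0.28), the Myc targets (0.45) and the other small subunit processome (0.44). The other lists stood at 0.71 (Myc and Max network), 0.57 (large subunit), 0.61 (snoRNP), 0.49 (Pol I), 0.54 (exosome) and 0.52 (Pol II). Nop16 (0.041), Nop10 (0.36), Polr1e (0.068), Exosc10 (0.21) and Polr2b (0.24) changed sign, as did the members Ubtf, Dkc1, Nhp2, Rrp9, Utp20, Nob1, Bop1, Pes1 and Rrs1. Relative to the median of all genes, the median of the members was −0.03 with and without scaling, −0.10 with the mean over the probes of a gene and 0.03 with normexp.

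With the mean over the probes of a gene the box C/D median was 0.071, and Ncl (0.12), Nolc1 (−0.16) and Nop56 (−0.18) changed sign, because their probes disagree. Ncl was then no longer among the lower members, which numbered 4. With no filter on dim probes 2 members were higher by 1.5-fold, Max and Mxd3. All genes then numbered 440 lower and 921 higher by 2-fold and 2782 higher by 1.5-fold, over 20655 genes. With a log2 signal of 6 or more on both arrays 182 genes were higher by 2-fold, over 13394 genes. With normexp, chosen after seeing the data, 149 genes were lower and 124 higher by 2-fold and 865 higher by 1.5-fold, 4 members were lower by 1.5-fold (without Polr1b), and the cause was not tested. Normexp as planned, on mean signals, was not run, because the files used here hold median signals. Signal over background limits dim probes, with a spot SD of 0.46 under a log2 of 6, where Mxi1 lies.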
